A study of Mus musculus with 9 samples.

Results

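The genes described are 10 whose products regulatory T cells use to restrain other cells: Tgfb1, Lrrc32, Il10, Ebi3, Il12a, Nt5e, Entpd1, Gzmb, Prf1 and Fgl2. They were taken by symbol from the 28111 genes of the deposited count table, and all 10 were found. The libraries were made from mRNA of induced regulatory T cells (iTreg), CD4 T cells of C57BL/6J mice in which culture conditions switch on Foxp3, the defining transcription factor of the lineage. There were 9 libraries: 4 from cells carrying a Glut1 transgene (Glut1Tg), which encodes a glucose transporter of the plasma membrane, and 5 from wild-type cells (WT). Each library also bore a mouse group label. Mouse group 2 held Glut1Tg replicate 1 and WT replicates 2, 4 and 5, and mouse group 1 held Glut1Tg replicates 2, 3 and 4 and WT replicates 1 and 3. What the mouse groups are, which promoter or cell type drives the transgene, the age of the mice and whether each library had its own animal or culture were not given in the sources used here. Every p-value below thus reflects the variation among these particular libraries, and that variation could be technical.

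Regulatory T cells act through several routes. They release or display inhibitory cytokines (TGF-beta, IL-10 and the Ebi3 and Il12a dimer IL-35), they degrade extracellular ATP to adenosine with a pair of surface enzymes, and they can deliver granzyme B through perforin pores as cytotoxic lymphocytes do. Fgl2, a secreted fibrinogen-like protein, is a further soluble mediator. TGF-beta is made as a latent complex, which the Lrrc32 product GARP anchors on the cell surface.

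Library totals ran from 20881035 to 31196428 counts, of which the 10 genes together took 0.0970% to 0.140%. Slc2a1, the gene that encodes Glut1, had 260.2, 496, 279 and 457 CPM (counts per 1000000 of the library total scaled by TMM) in Glut1Tg replicates 1 to 4, against 29.7 to 58.7 CPM in WT. All 15 T cell and Treg markers had counts in every library, and Foxp3 had 621 to 1164 CPM. Along the first principal component Glut1Tg replicate 1 and WT replicate 2 lay apart, with the proliferation gene Mki67 at 1652 and 1621 CPM against 346 to 808 CPM elsewhere. Along the second, Glut1Tg replicate 3 lay apart, with the macrophage and granulocyte gene Lyz2 at 206.5 CPM against at most 2.67 CPM elsewhere. Xist, expressed from the inactive X chromosome of females, had 256 and 340 CPM in Glut1Tg replicates 2 and 4 and at most 1.32 CPM in the other libraries.

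Promoter sequences are shown for Gzmb, the member with the widest spread between libraries, and for Fgl2 and Tgfb1, which stood highest in the same 3 libraries as Il10 and Lrrc32. Each is the 250 bases before a RefSeq transcript start in GRCm38.p6, read 5′ to 3′ on the strand of the gene, with matches to the AP-1 site TGANTCA in capitals. The windows are chr14:56262335-56262584 on the minus strand for Gzmb, chr5:21372423-21372672 on the plus strand for Fgl2 and chr7:25686752-25687001 on the plus strand for Tgfb1.
Gzmb: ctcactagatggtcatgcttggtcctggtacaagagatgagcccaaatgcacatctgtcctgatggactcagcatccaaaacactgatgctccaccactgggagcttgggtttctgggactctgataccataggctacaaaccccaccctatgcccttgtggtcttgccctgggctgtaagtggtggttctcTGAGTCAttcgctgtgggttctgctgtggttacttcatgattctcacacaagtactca
Fgl2: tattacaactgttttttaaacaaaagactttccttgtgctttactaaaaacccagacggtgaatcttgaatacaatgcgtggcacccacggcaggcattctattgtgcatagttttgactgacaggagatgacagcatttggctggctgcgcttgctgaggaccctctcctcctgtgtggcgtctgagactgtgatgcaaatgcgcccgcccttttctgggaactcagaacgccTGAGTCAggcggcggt
Tgfb1: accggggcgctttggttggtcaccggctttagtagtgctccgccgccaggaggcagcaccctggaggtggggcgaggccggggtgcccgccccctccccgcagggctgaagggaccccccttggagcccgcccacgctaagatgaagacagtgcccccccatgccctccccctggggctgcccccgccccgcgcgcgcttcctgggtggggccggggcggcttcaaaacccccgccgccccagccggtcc
The RefSeq table held promoters for 8 of the 10 genes, all but Il10 and Lrrc32. The motifs were chosen after the sequences had been read. On both strands, TGANTCA matched 58 bases upstream of the start in Gzmb and 16 bases upstream in Fgl2, and it occurred in 6.75% of all 32851 promoter windows of this length. The STAT motif TTCNNNGAA matched 36 bases upstream in Fgl2 (7.02% of windows), without overlap with the AP-1 match. The forkhead motif TGTTTAC (3.17% of windows) matched in none of the members' windows. The short NFAT core GGAAA, found in 55.6% of windows, matched in Fgl2, Ebi3 and Entpd1. These matches describe letters and show no binding.

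Divided by exon length (RPKM, library-scaled reads per kilobase of merged exons), the ectoenzyme gene Nt5e stood highest at 70.2 ± 14.6 RPKM, followed by Tgfb1 at 61.8 ± 16.0 RPKM and Lrrc32 at 38.6 ± 26.6 RPKM (SD over the 9 libraries, here and below). Gzmb followed with 21.3 ± 33.4 RPKM, an SD larger than its mean. Ebi3 and Entpd1 had 8.21 ± 2.97 and 7.34 ± 1.47 RPKM, and Fgl2 had 4.57 ± 2.41 RPKM. At the low end were Il10 with 2.07 ± 1.28 RPKM, Prf1 with 1.13 ± 0.267 RPKM and Il12a with 0.844 ± 0.531 RPKM. The ranges of all neighbours in this order overlapped. Within libraries, Fgl2 exceeded Il10 in 9 of 9, Prf1 exceeded Il12a in 8 of 9, and the other neighbours kept the order in 5 to 7 of 9.

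**Figure D1:**
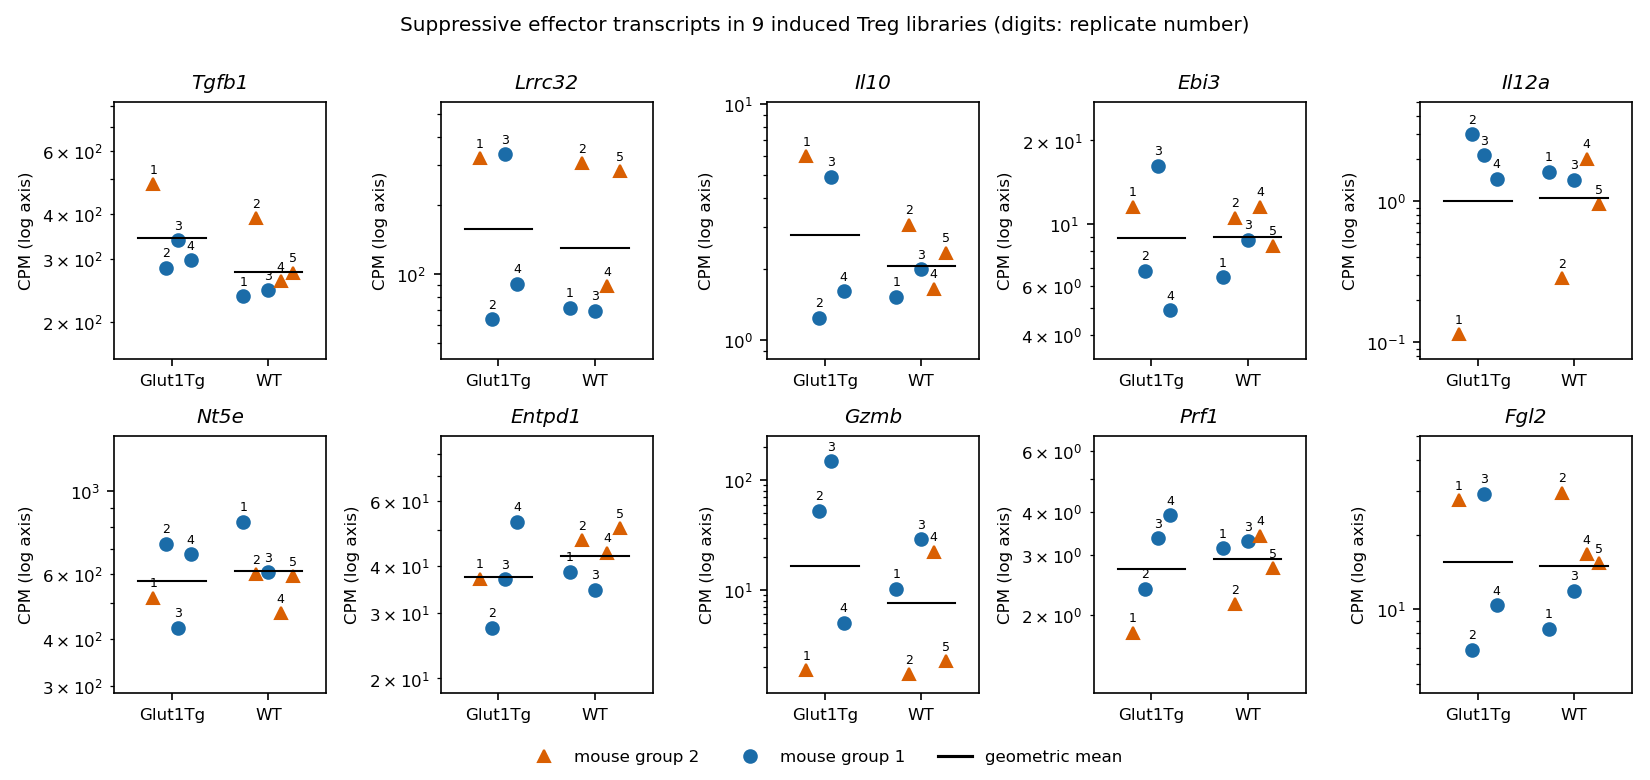
Level of each of the 10 genes in every library, in CPM on log axes, with Glut1Tg at the left and WT at the right of each panel. Triangles are mouse group 2, circles are mouse group 1, digits are replicate numbers and lines are geometric means. In every panel the genotypes overlap, and Lrrc32 splits into libraries at 283 to 335 CPM and libraries at 63.9 to 91.1 CPM.

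The comparison of Glut1Tg with WT asked whether these transcripts differed between cells with and without the transgene. Xist had 256 and 340 CPM in Glut1Tg replicates 2 and 4, both of mouse group 1, and at most 1.32 CPM in WT. Sex was thus unevenly spread over the genotypes. No fit had a term for sex, and its part in the genotype values was not tested. None of the 10 genes passed the genotype test. A fit over all 14817 genes that passed the filter on low counts, with mouse group as a term, called 0 of 10 (edgeR quasi-likelihood test, Benjamini-Hochberg adjusted p under 0.05 over all genes), against a background of 0.00675% of genes, which is Slc2a1 alone. At an unadjusted p under 0.05 there was 1 of 10, Tgfb1, against 6% of all genes, and DESeq2 and limma-voom also called 0 members. The genotypes overlapped for every member, while 1.59% of all genes had no overlap. Fold changes were positive for 6 of 10 members and for 52.4% of all genes, with median log2 fold changes of 0.36 and 0.02. The members' median was 0.43 within mouse group 1 (9 of 10 positive) and -0.08 without Glut1Tg replicate 3 (4 of 10). Within mouse group 2 it was 0.02 (5 of 10), a value that sets 1 Glut1Tg library, replicate 1, which lay apart on the first component, against 3 WT libraries.

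The comparison of mouse group 2 with mouse group 1 used the same fit with genotype as the other term. It called 0 of 10 members, against a background of 24.1% of genes, 13.1% higher and 11% lower in mouse group 2. At an unadjusted p under 0.05 there were 2 of 10, Tgfb1 and Lrrc32, against 39.4% of all genes. DESeq2 called both of these, beside 4791 of all genes where edgeR called 3576. The limma-voom fit called 0 members, beside 3503 of all genes. The mouse groups overlapped for every member, while 21.8% of all genes had no overlap. Fold changes were positive for 6 of 10 members and for 49.2% of all genes, with median log2 fold changes of 0.28 and -0.01. A test of whether the genotype difference itself differed between mouse groups called 0 of 10 members, as it called 0% of all genes, with 1 member (Il12a) and 5.3% of genes at an unadjusted p under 0.05. DESeq2 and limma-voom called 0 members there as well. With single libraries left out, that test called 0 to 123 genes over all genes, the most without WT replicate 2, and 0 members.

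**Figure D2:**
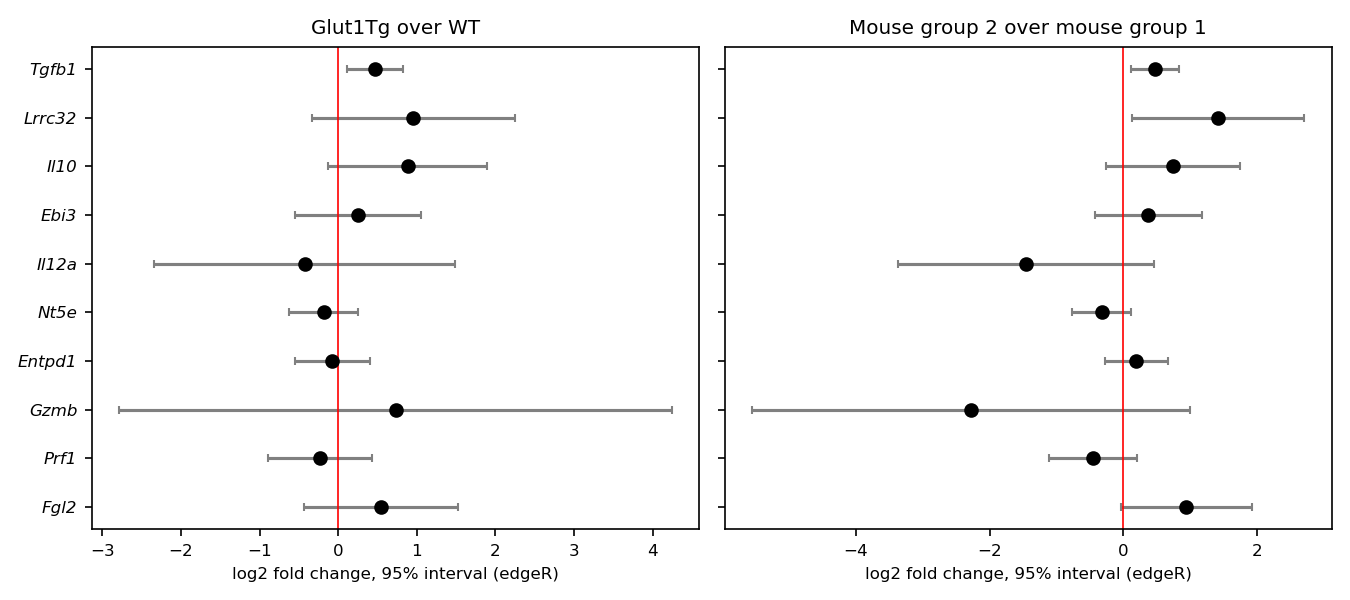
Log2 fold changes of the 10 genes with 95% intervals from edgeR, for Glut1Tg over WT at the left and mouse group 2 over mouse group 1 at the right. For Glut1Tg over WT, 9 of the 10 intervals cross 0 (Tgfb1 is the exception). For mouse group 2 over mouse group 1, all intervals but those of Tgfb1 and Lrrc32 cross 0. None of the genes passed the adjusted test in either comparison.

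Tgfb1 encodes the inhibitory cytokine TGF-beta 1 (ENSMUSG00000002603, mm10 chromosome 7, 25687002 to 25705077, plus strand). It had 485, 283, 338 and 297 CPM in Glut1Tg replicates 1 to 4, against 236, 389, 245, 259 and 274 CPM in WT replicates 1 to 5. All 4 Glut1Tg libraries lay above 4 of the 5 WT libraries, and WT replicate 2 lay above all but Glut1Tg replicate 1. Glut1Tg averaged 351 ± 92.6 CPM (SD, n = 4) and WT averaged 281 ± 62.4 CPM (SD, n = 5). The fold from the fit was 1.38 (95% interval 1.08 to 1.77), a log2 fold change of 0.47 with SE 0.16, and it did not pass (edgeR adjusted p = 0.681). Within mouse group 1 alone the log2 fold change was 0.34, which did not pass (edgeR adjusted p = 0.910). Within mouse group 2, where Glut1Tg is 1 library, it was 0.63. Mouse group 2 averaged 352 ± 106 CPM and mouse group 1 averaged 279.7 ± 41.1 CPM. That difference, a log2 fold change of 0.48 with SE 0.16, fell just short (edgeR adjusted p = 0.0553). DESeq2 called it (adjusted p = 0.0206), as did edgeR with DESeq2 size factors (adjusted p = 0.0492). Without both libraries that lay apart on the first component, Glut1Tg replicate 1 and WT replicate 2, the mouse group value was 0.16.

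Lrrc32 encodes GARP, the surface anchor of latent TGF-beta on activated Treg cells (ENSMUSG00000090958, chromosome 7, 98489283 to 98502181, plus strand). It had 323, 63.9, 335 and 91.1 CPM in Glut1Tg replicates 1 to 4, against 71.6, 306, 69.4, 88.6 and 283 CPM in WT replicates 1 to 5. The libraries fell into 4 with high and 5 with low values, and both sets held libraries of each genotype and each mouse group. Mouse group 2 averaged 249.9 ± 109 CPM and mouse group 1 averaged 126.1 ± 117 CPM (SD, n = 4 and 5). The log2 fold change of 1.42 (SE 0.57) did not pass in edgeR (adjusted p = 0.0993) and passed in DESeq2 (adjusted p = 0.0230). Without Glut1Tg replicate 3, the high library of mouse group 1, it was 1.83 and passed in edgeR (adjusted p = 0.00994). It did not pass in edgeR without any other single library, and was weakest at 1.23 without WT replicate 2 (adjusted p = 0.177). Between genotypes Lrrc32 had 203 ± 146 CPM in Glut1Tg and 164 ± 120 CPM in WT, a fitted fold of 1.94 with an interval of 0.792 to 4.73 (edgeR adjusted p = 0.681). Without Glut1Tg replicate 3 the genotype log2 fold change was 0.29 instead of 0.95. The Glut1Tg libraries with Xist transcripts, replicates 2 and 4, were the Glut1Tg libraries with low Lrrc32. WT replicates 1, 3 and 4, with at most 1.15 CPM of Xist, also had low Lrrc32. The part of sex in the result was not tested.

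Il10 encodes interleukin-10, a secreted inhibitory cytokine (ENSMUSG00000016529, chromosome 1, 131019845 to 131024974, plus strand). It rested on few reads, 159, 25, 123 and 48 counts in Glut1Tg replicates 1 to 4 against 33, 76, 49, 42 and 64 counts in WT replicates 1 to 5. In CPM these were 6.01, 1.24, 4.91 and 1.61 in Glut1Tg, against 1.52, 3.08, 1.99, 1.65 and 2.34 in WT. The WT values lay inside the wider range of Glut1Tg. The log2 fold change between genotypes was 0.88 with SE 0.45 (edgeR adjusted p = 0.681). It was 0.49 without Glut1Tg replicate 3, and -0.31 without the 3 libraries that lay apart on the first and second components, an exclusion chosen after the values were seen. That exclusion left Glut1Tg replicates 2 and 4, the libraries with Xist transcripts, so genotype and sex cannot be told apart in it. Between mouse groups the log2 fold change was 0.75 with SE 0.45 (edgeR adjusted p = 0.246), and it was 0.41 without Glut1Tg replicate 1.

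Ebi3, the beta chain shared by IL-27 and IL-35 (ENSMUSG00000003206, chromosome 17, 55952640 to 55957022, plus strand), had 11.6, 6.81, 16.2 and 4.92 CPM in Glut1Tg replicates 1 to 4, against 6.46, 10.5, 8.81, 11.6 and 8.38 CPM in WT replicates 1 to 5. The WT values lay inside the range of Glut1Tg. The log2 fold change between genotypes was 0.25 with SE 0.36 (edgeR adjusted p = 0.826) and -0.14 without Glut1Tg replicate 3, and between mouse groups it was 0.37 with SE 0.36 (edgeR adjusted p = 0.467). The antisense gene Gm16712 overlaps exons of Ebi3 and had 18 to 43 counts per library, against 137 to 406 for Ebi3. The libraries were stranded, but the strand setting used in counting was not given in the sources used here, so how such reads were divided is unknown.

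Il12a, the alpha chain of IL-12 and IL-35 (ENSMUSG00000027776, chromosome 3, 68690644 to 68698547, plus strand), was the least abundant member. It had 3, 60, 53 and 43 counts in Glut1Tg replicates 1 to 4, against 35, 7, 35, 51 and 26 counts in WT replicates 1 to 5. The low libraries were Glut1Tg replicate 1 and WT replicate 2, the pair with the most Mki67, at 0.113 and 0.284 CPM against 0.951 to 2.98 CPM elsewhere. Mouse group 2 averaged 0.837 ± 0.855 CPM and mouse group 1 averaged 1.92 ± 0.66 CPM (SD, n = 4 and 5). The log2 fold change of -1.45 (SE 0.85) did not pass (edgeR adjusted p = 0.236). It was -0.03 without that pair. In an exact two-sided permutation test of mean log2 CPM, without a genotype term, Il12a had an unadjusted p of 0.0397 between mouse groups. It was the 1 member of 10 under 0.05. The exact test was run on the members alone, so no share over all genes can be set beside that count. The splits into 4 and 5 libraries allow no p below 0.00794. Between genotypes the log2 fold change was -0.42 with an interval of -2.34 to 1.49 (edgeR adjusted p = 0.881), and it was 0.49 without Glut1Tg replicate 1. The genotype difference was lower in mouse group 2 than in mouse group 1, by a log2 value of -3.71 (SE 1.37, edgeR unadjusted p = 0.0252, adjusted p = 0.741), a value that rests on the 1 Glut1Tg library of mouse group 2.

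Nt5e encodes CD73, which converts AMP to adenosine at the cell surface (ENSMUSG00000032420, chromosome 9, 88327197 to 88372092, plus strand). It had 517, 721, 429 and 678 CPM in Glut1Tg replicates 1 to 4, against 827, 599, 606, 469.9 and 589.7 CPM in WT replicates 1 to 5. The values spread evenly over both genotypes, with a highest-to-lowest ratio of 1.93. The log2 fold change was -0.18 (interval -0.62 to 0.26, edgeR adjusted p = 0.766) between genotypes and -0.32 (interval -0.76 to 0.12, edgeR adjusted p = 0.251) between mouse groups.

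Entpd1 encodes CD39, the ectoenzyme that degrades ATP and ADP to AMP one step before CD73 (ENSMUSG00000048120, chromosome 19, 40612366 to 40741602, plus strand). It had 37.0, 27.4, 36.9 and 52.7 CPM in Glut1Tg replicates 1 to 4, against 38.7, 47.0, 34.6, 43.5 and 50.6 CPM in WT replicates 1 to 5. The WT values lay within the range of Glut1Tg, as they did for Ebi3. Its log2 fold change was -0.07 (interval -0.55 to 0.40, edgeR adjusted p = 0.921) between genotypes and 0.20 (interval -0.28 to 0.67, edgeR adjusted p = 0.517) between mouse groups. As folds of Glut1Tg over WT, the 95% interval was 0.684 to 1.32 for Entpd1 and 0.651 to 1.195 for Nt5e.

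Gzmb encodes granzyme B, a serine protease of cytotoxic granules that mast cells and basophils can also make (ENSMUSG00000015437, chromosome 14, 56258838 to 56262260, minus strand). It varied more than any other member, with 1.85, 53.0, 150.4 and 5.02 CPM in Glut1Tg replicates 1 to 4, against 10.2, 1.7, 28.9, 22.3 and 2.23 CPM in WT replicates 1 to 5. The highest library was 88.2-fold above the lowest, and both genotypes held high and low libraries. The SD of its log2 CPM stood at percentile 99.6 of all genes tested. Glut1Tg averaged 52.6 ± 69.3 CPM and WT averaged 13.1 ± 12.2 CPM, a log2 fold change of 0.73 whose interval ran from -2.78 to 4.24 (edgeR adjusted p = 0.888). It was -0.38 without Glut1Tg replicate 3 and -0.43 without WT replicate 1. Mouse group 2 averaged 7.02 ± 10.2 CPM and mouse group 1 averaged 49.5 ± 59.4 CPM, a log2 fold change of -2.28 with SE 1.45 (edgeR adjusted p = 0.275). Without WT replicate 4, the high library of mouse group 2, that value was -4.04 and passed (edgeR adjusted p = 0.0295). It did not pass without any other single library, and was weakest at -1.16 without Glut1Tg replicate 1 (edgeR adjusted p = 0.652).

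Most transcripts of a mast cell and basophil marker list were high and low in the same libraries as Gzmb, a comparison made after its values were seen. All 15 genes of that marker list were in the table, and 11 to 15 of them had counts in a given library. Their summed level was 145, 1033, 5568 and 638 CPM in Glut1Tg replicates 1 to 4, against 598, 169, 1209, 2448 and 751 CPM in WT replicates 1 to 5. Cpa3, the mast cell carboxypeptidase, had 3.56, 364, 1670 and 116 CPM in Glut1Tg, against 151, 2.48, 286, 524 and 91.3 CPM in WT. The 4 libraries with the most Gzmb were the 4 with the highest summed level, and the 2 with the least Gzmb were the 2 with the lowest. Kit, the stem cell factor receptor, did not follow them, with 86.8, 110.4, 116 and 124 CPM in Glut1Tg, against 112, 124, 146, 98.6 and 79.6 CPM in WT. In Glut1Tg replicate 1 and WT replicate 2, the libraries with the least Gzmb, Kit and Cyp11a1 (22.5 and 30.7 CPM) made up most of the sum. The mast cell tryptase gene Tpsb2 was at 0 in that pair alone, and Mcpt4 and Prss34 were at 0 in WT replicate 2. Tpsab1, another tryptase gene, was at 0 in those 2 and in Glut1Tg replicate 4 and WT replicates 1 and 5, and at no more than 0.118 CPM elsewhere. The part of these cells in the Gzmb values was not tested. In bulk libraries fewer cells of a type and less RNA per cell cannot be told apart.

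**Figure D3:**
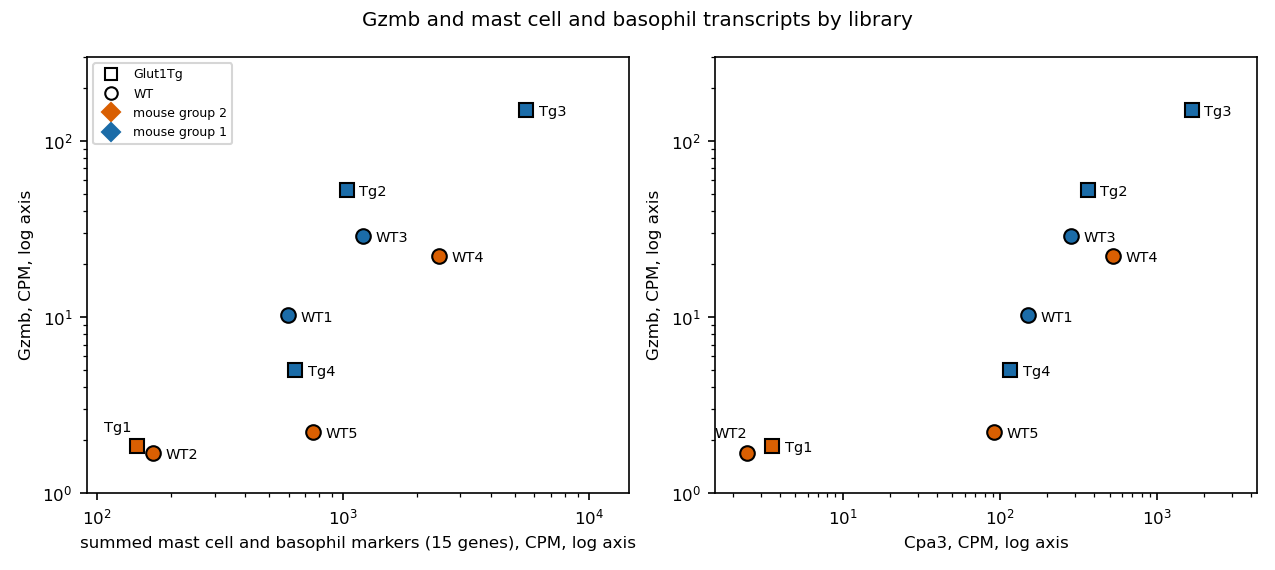
Gzmb in each library against the summed level of 15 mast cell and basophil markers (left) and against Cpa3 (right), all in CPM on log axes. Squares are Glut1Tg, circles are WT, and colour gives the mouse group. Glut1Tg replicate 3 is highest on all 3 measures, with 150.4 CPM of Gzmb and 1670 CPM of Cpa3, and Glut1Tg replicate 1 and WT replicate 2 are lowest.

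Markers of natural killer and CD8 T cells, which make granzymes, were also summed. Of the 10 natural killer markers, 5 to 8 had counts, with a summed level of 9.27 to 37.0 CPM in Glut1Tg and 8.89 to 14.0 CPM in WT. The 37.0 CPM were in Glut1Tg replicate 3, the library with the most Gzmb, against at most 14.0 CPM in any other library. Eomes made up 29.1 CPM of that sum. Klra4 and Klra8, which encode natural killer receptors, were at 0 in every library. Both CD8 genes had counts in every library, with sums of 7.07 to 9.71 CPM in Glut1Tg and 8.69 to 10.5 CPM in WT. Cd8b1 made up most of each sum, and Cd8a ran from 0.167 to 2.54 CPM. Platelet and erythroid markers, 9 to 12 of 12 with counts, ranked the libraries in the same order as the mast cell list. They summed to 1145 CPM in Glut1Tg replicate 3 and to 5.98 and 7.51 CPM in Glut1Tg replicate 1 and WT replicate 2. The 16 myeloid markers summed to 208, 398, 974.6 and 405.5 CPM in Glut1Tg replicates 1 to 4. In WT replicates 1 to 5 they summed to 449, 246, 373, 454 and 357 CPM. Their highest sum was in the library with the most Gzmb, and their 2 lowest were in the 2 with the least. In every library but Glut1Tg replicate 3, a single gene, Ctss, made up most of the myeloid sum. Ctss had 200.4 and 232.9 CPM in Glut1Tg replicate 1 and WT replicate 2. The part of these cells in the Gzmb values was not tested either. The 7 B cell markers summed to at most 9.99 CPM in any library.

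Prf1 encodes perforin, which forms the pores through which granzymes enter target cells (ENSMUSG00000037202, chromosome 10, 61297833 to 61304680, plus strand). It had 1.78, 2.39, 3.36 and 3.92 CPM in Glut1Tg replicates 1 to 4, against 3.14, 2.15, 3.29, 3.41 and 2.74 CPM in WT replicates 1 to 5. The WT values lay inside the range of Glut1Tg. The highest Prf1 library was 2.20-fold above the lowest, so this partner of Gzmb did not share its spread. The log2 fold change was -0.23 with SE 0.29 (edgeR adjusted p = 0.804) between genotypes and -0.45 with SE 0.29 (edgeR adjusted p = 0.282) between mouse groups. Without Glut1Tg replicate 1 these values were -0.02 and -0.22.

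Fgl2 (ENSMUSG00000039899, chromosome 5, 21372642 to 21378374, plus strand) encodes the secreted fibrinogen-like mediator of Treg cells. It had 27.6, 6.86, 29.2 and 10.4 CPM in Glut1Tg replicates 1 to 4, against 8.36, 29.5, 11.9, 16.7 and 15.3 CPM in WT replicates 1 to 5. Glut1Tg replicates 1 and 3 and WT replicate 2 were close together at the top, and the other 6 libraries were at 16.7 CPM or less. Between genotypes the log2 fold change was 0.54 with SE 0.44 (edgeR adjusted p = 0.697), and it was 0.06 without Glut1Tg replicate 3. Mouse group 2 averaged 22.3 ± 7.3 CPM and mouse group 1 averaged 13.4 ± 9.09 CPM, a log2 fold change of 0.95 with SE 0.44 that did not pass (edgeR adjusted p = 0.139). Without Glut1Tg replicate 3 it was 1.27 and passed (edgeR adjusted p = 0.0139). It did not pass without any other single library, and was weakest at 0.74 without WT replicate 2 (edgeR adjusted p = 0.262). The gene lies inside Ccdc146, which runs on the opposite strand without exonic overlap and had 2 to 12 counts per library.

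Several members were high in the same libraries. Il10, Tgfb1, Lrrc32 and Fgl2 each had their 3 highest values in Glut1Tg replicates 1 and 3 and WT replicate 2, and Ebi3 had 2 of its 3 highest there. These 3 libraries lay apart on the first and second components, which held 50.7% and 20.4% of the variance over all genes. The share of all genes with the same 3 libraries highest was not counted. Il10, Lrrc32 and Fgl2 were each lowest in Glut1Tg replicate 2. In Gzmb, by contrast, Glut1Tg replicate 1 and WT replicate 2 were the lowest libraries. The highest library exceeded the lowest by at least 4-fold in 5 of 10 members, against 27.6% of all genes (counting genes with a library at 0), and by at least 10-fold in 2 of 10, Il12a and Gzmb, against 9.27%. The SD of log2 CPM had a median of 0.64 over the members and 0.45 over all genes.

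**Figure D4:**
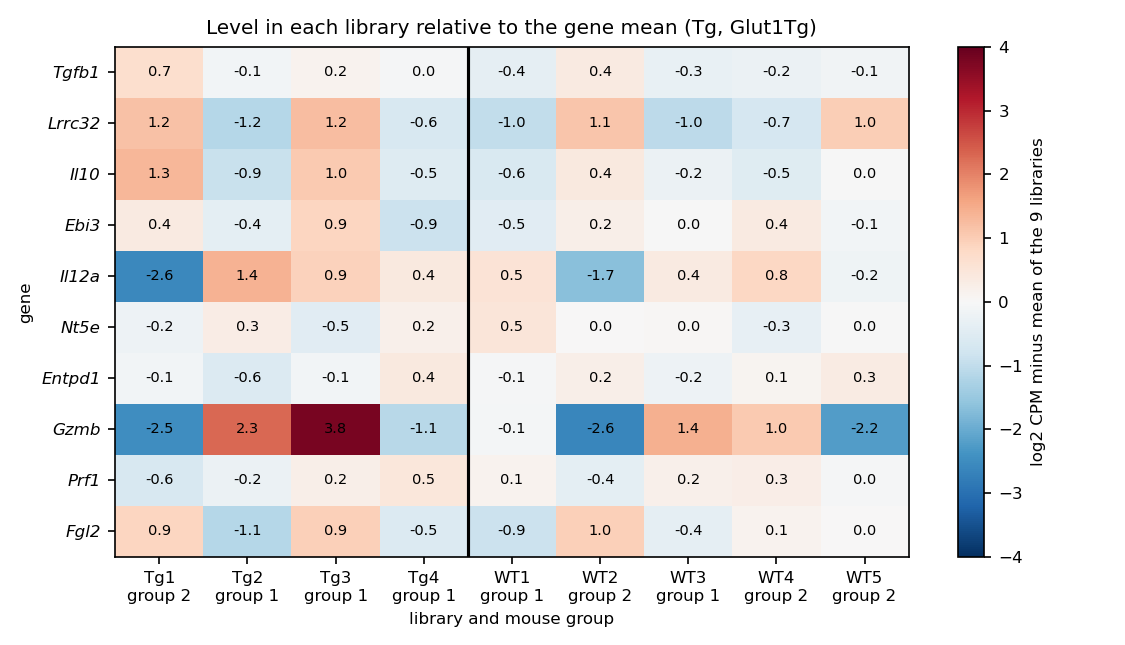
Level of the 10 genes in each library as log2 CPM minus the mean of that gene over the 9 libraries, with Glut1Tg at the left and WT at the right of the vertical line and the mouse group under each library. Lrrc32, Il10 and Fgl2 are high in Glut1Tg replicates 1 and 3 and in WT replicate 2, while Il12a and Gzmb are low in Glut1Tg replicate 1 and WT replicate 2.

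The genes most alike each varying member were those with the smallest root mean square difference in centred log2 CPM over the 9 libraries, among 9551 candidates. For Il10 these were Dbi, Mesdc1 and Cisd1, at 0.23 to 0.24 log2 units. For Fgl2 they were Pnp, Arhgef40 and Nudt2, at 0.18 to 0.20. For Lrrc32 they were Usp27x, Myc and Gpr83, at 0.37 to 0.41. Myc, the growth-promoting transcription factor, had 243, 74.5, 412 and 107 CPM in Glut1Tg replicates 1 to 4, against 84.3, 172, 83.4, 116 and 243 CPM in WT replicates 1 to 5. For Il12a they were Matk, H2-Ob and Rundc3a, at 0.30 to 0.33. For Gzmb they were Cd200r3, Anxa1 and Ccl6, more distant at 0.79 to 0.84, and Cd200r3 encodes a receptor of mast cells and basophils.

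Related genes of each route were examined in 6 lists. None of their genes passed the genotype test (edgeR adjusted p under 0.05), against the background of 0.00675%. Between mouse groups 35.3% of the cytolytic granule genes passed, 2 higher and 4 lower of 17 tested, against the background of 24.1%. The corresponding shares were 10% of 20 extracellular ATP and adenosine genes (1 higher and 1 lower), 12.5% of 16 latent TGF-beta handling genes (0 higher and 2 lower) and 43.8% of 16 IL-10 family genes and regulators (1 higher and 6 lower). For 7 genes of the IL-12 and IL-35 family the share was 28.6% (1 higher and 1 lower), and for 23 other suppression genes it was 34.8% (5 higher and 3 lower). Nrp1 and Il27ra each stood in 2 lists and did not pass. The median log2 fold changes of the lists, in that order, were -0.27, 0.07, -0.02, -0.49, -0.05 and 0.39, beside -0.01 over all genes.

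Of the cytolytic genes, Gzmm, which encodes granzyme M, had 1.04 ± 0.319 CPM in mouse group 2 and 3.81 ± 0.577 CPM in mouse group 1 (SD, n = 4 and 5), and fell by 2.00 on the log2 scale (edgeR adjusted p = 0.00307). Stx11, a syntaxin needed for granule release, was lower by a log2 fold change of -1.25, and the lysosomal membrane gene Lamp1 by -0.64. Rab27a, whose GTPase docks granules at the membrane, had 107 ± 8.8 CPM in mouse group 2 and 78.0 ± 6.57 CPM in mouse group 1, a log2 fold change of 0.42 (edgeR adjusted p = 0.0319). Every library of mouse group 2 lay outside the range of mouse group 1 for all 4 of these genes, as for 21.8% of all genes. These genes and the related genes named below were picked by smallest p on the same values. Such separation is thus no added support for them.

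Around the ectoenzymes, the adenosine receptor gene Adora2a was lower in mouse group 2, at 10.6 ± 2.83 CPM against 22.9 ± 6.09 CPM in mouse group 1 (log2 fold change -1.21, edgeR adjusted p = 0.0158). Cd38, which encodes an NAD-consuming ectoenzyme, was higher, at 28.7 ± 4.95 CPM against 16.2 ± 2.89 CPM (log2 fold change 0.80, edgeR adjusted p = 0.0207). Among genes that handle latent TGF-beta, Nrros, which encodes a relative of GARP, had 42.4 ± 4.1 CPM in mouse group 2 and 98.2 ± 10.6 CPM in mouse group 1 (log2 fold change -1.19, edgeR adjusted p = 0.0016). Its 4 values in mouse group 2 lay between 37.7 and 46.6 CPM and its 5 values in mouse group 1 between 88.9 and 113 CPM, a separation that Lrrc32 did not show. Furin, whose protease cleaves the TGF-beta precursor, was lower by a log2 fold change of -0.57 (edgeR adjusted p = 0.04).

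Nfil3, Ahr and Batf, transcription factors known to regulate Il10 in T cells, were lower in mouse group 2. Nfil3 had 21.4 ± 4.03 CPM in mouse group 2 and 58.9 ± 11.9 CPM in mouse group 1 (log2 fold change -1.49, edgeR adjusted p = 0.00222). Ahr, the aryl hydrocarbon receptor, and Batf, an AP-1 family factor, had log2 fold changes of -1.02 and -0.87 (edgeR adjusted p = 0.00665 and 0.0151). The receptor chain gene Il10rb was higher, by a log2 fold change of 0.55 (edgeR adjusted p = 0.0172). In the IL-12 family, the receptor chain genes Il12rb1 and Il23r had log2 fold changes of 1.16 and -1.88 (edgeR adjusted p = 0.0466 and 0.0487), the second at no more than 1.34 CPM in any library.

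Among other suppression genes, Il2ra, the high-affinity chain of the IL-2 receptor, had 2959, 2386, 397 and 690 CPM in Glut1Tg replicate 1 and WT replicates 2, 4 and 5 of mouse group 2, against 241 to 389.8 CPM in mouse group 1. All mouse group 2 libraries were above mouse group 1, with the pair highest in Mki67 also highest here (log2 fold change 2.32, edgeR adjusted p = 0.0138). Pdcd1, which encodes the inhibitory receptor PD-1, had 84.2, 70.4, 23.6 and 31 CPM in the same libraries, against 8.23 to 13.8 CPM (log2 fold change 2.25, edgeR adjusted p = 0.00474). Cd274, which encodes the PD-1 ligand, had 46.6 ± 7.18 CPM in mouse group 2 and 122 ± 34.4 CPM in mouse group 1 (log2 fold change -1.34, edgeR adjusted p = 0.00553). The inhibitory receptor gene Ctla4 was lower by a log2 fold change of -0.71 (edgeR adjusted p = 0.0197). Without Glut1Tg replicate 1, the 1 Glut1Tg library of mouse group 2, 12 of the 18 named genes no longer passed, and 7 no longer passed without WT replicate 1 and without WT replicate 3 in turn. No log2 fold change of the 18 changed sign when any single library was left out. Without Glut1Tg replicate 1 that of Cd38 was 0.99 and that of Ctla4 -0.85, both farther from 0 than with it though neither passed, while that of Il12rb1 was 0.63.

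**Figure D5:**
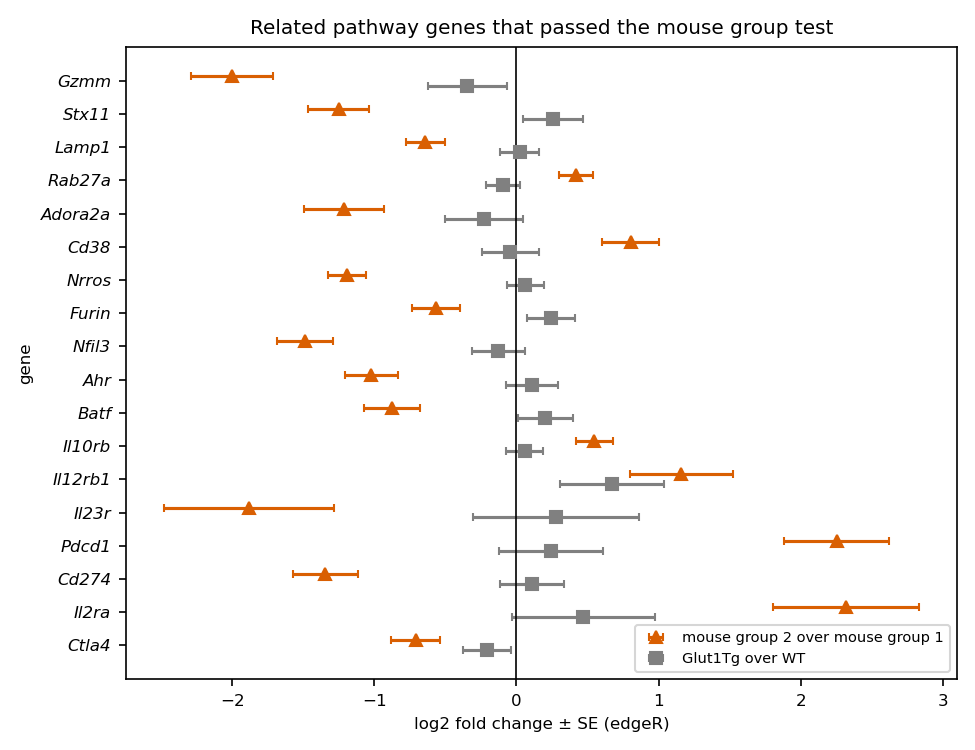
Log2 fold changes with SE from edgeR for the 18 related genes named above, for mouse group 2 over mouse group 1 (triangles) and Glut1Tg over WT (squares). All 18 passed the mouse group test and none passed the genotype test.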

How the data were processed

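Per the labels, RNA from an RNeasy kit went into stranded TruSeq mRNA libraries, and paired ends of 75 bp were read on a HiSeq instrument. Per the submitters' processing notes, TopHat2, featureCounts, DESeq2 and mm10 were used; versions and parameters were not given in the sources used here. Deposited counts were whole numbers per gene, not normalized by the authors. The deposited log2 values cover 13700 genes, without Il12a; how the authors made them is not stated, and they served 1 alternative only.

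Counts were fitted with edgeR 4.0.16 in R 4.3.3 (filterByExpr by genotype, TMM, quasi-likelihood test, terms for mouse group and genotype, Benjamini-Hochberg over 14817 genes, threshold 0.05). DESeq2 1.42.0, limma 3.58.1 (voom and the log2 table), the fits without single libraries and the fits within mouse groups or genotypes were alternatives. The edgeR, DESeq2 and voom fits of both terms were tested on simulated counts. None of the 36 library pairs differed by as little as sampling noise, so each library was kept as a sample. Gene positions and lengths come from GENCODE M21, promoters from RefSeq.

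The members and lists were chosen with earlier results of these data known. Every member is named; from each list, up to 4 genes past the threshold in either comparison, by smallest p; alike genes for members with a mean of at least 1 CPM and an SD of at least 0.75 log2 units. Adjusting the exact tests over the members, though planned, was dropped. After first results had been seen, fits without libraries were set to keep the same 14817 genes. The labels do not pair libraries by replicate number. Same-numbered libraries deviated from their genotype means with correlations across genes of -0.51, -0.59, 0.23 and -0.21 for numbers 1 to 4. Numbers 1, 2 and 4 join libraries of different mouse groups, so these correlations cannot tell whether the numbers pair libraries.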

Additional observations from a re-analysis of the deposited data

Results flagged for a closer look

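In 40 groups of 4 or 5 libraries, 3 values lay far from the rest of their group by Dixon's criterion, which chance alone meets in about 1 in 20 groups. In mouse group 2, Lrrc32 in WT replicate 4 was low at 88.6 CPM, with a gap of 0.898 of the group's range against a critical value of 0.829. In mouse group 1, Lrrc32 in Glut1Tg replicate 3 was high at 335 CPM (0.785 against 0.71). Gzmb in WT replicate 4 was high for mouse group 2 at 22.3 CPM (0.897 against 0.829).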

How the results depend on the processing

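Members passing the genotype test stayed at 0 under all 20 alternatives and those passing the interaction test at 0 under all 13 run (without Glut1Tg replicate 1 it could not be fitted); over all genes that test called 0, with 2 under DESeq2 and 0 to 123 with single libraries left out. Fits with 1 library in an arm assume that it varies like the others. Over all genes, 1 passed by genotype, with 2 without the low-count filter, 7 by DESeq2, 0 without Glut1Tg replicate 1 and WT replicate 2 (both apart on the first component), 13 without the 3 libraries apart on the first and second components (chosen after seeing the data), 0 within mouse group 1, 0 within mouse group 2 and 1 to 2 with single libraries left out. Between mouse groups 3576 genes passed, with 593 without both libraries, 642 within WT, 0 within Glut1Tg and 668 to 4552 with single libraries left out (lowest without Glut1Tg replicate 1, highest without Glut1Tg replicate 3). With the replicate number as a block, 0 genes and 0 members passed in either comparison; the numbers pair nothing by the labels. Members passing between mouse groups numbered 0, with 1 under DESeq2 size factors (beside 3569 of all genes) and 2 under DESeq2 (beside 4791). With single libraries left out they numbered 0 to 3, beside 668 to 4552 of all genes. Members with an exact permutation p under 0.05 numbered 0 by genotype (0 to 1 with single libraries left out) and 1 by mouse group (0 to 2). The exact test was not run over all genes. Of 199 member values by genotype, 18 changed sign. Il12a was 0.49 without both libraries, 0.51 without the 3, 0.40 without the mouse group term and 0.51 within mouse group 1. Entpd1 was 0.0623, 0.12 and 0.0866 without both, without the 3 and within mouse group 1. Without the 3, Il10 was -0.31, Ebi3 -0.40 and Fgl2 -0.24. Glut1Tg was then replicates 2 and 4 alone, with 256 and 340 CPM of Xist, against at most 1.32 CPM in WT. Genotype and sex thus cannot be told apart in the fit without the 3, nor in its 13 genes. Gzmb was -2.27 within mouse group 2 and Prf1 0.0014 within mouse group 1. With single libraries left out the log2 fold changes ran from -0.14 to 0.41 for Ebi3, -1.06 to 0.49 for Il12a, -0.27 to 0.0619 for Entpd1, -0.43 to 1.78 for Gzmb, -0.37 to -0.02 for Prf1, 0.06 to 0.73 for Fgl2, 0.49 to 1.08 for Il10, 0.29 to 1.17 for Lrrc32, -0.27 to -0.07 for Nt5e and 0.32 to 0.52 for Tgfb1. The median over the members was -0.08 without Glut1Tg replicate 3 and 0.01 without WT replicate 1. By mouse group 1 of 199 values changed sign, Entpd1 to -0.0788 within Glut1Tg. The causes were not tested. Lists passed fewer genes without Glut1Tg replicate 1: 2 cytolytic, 0 ATP and adenosine, 1 latent TGF-beta, 2 IL-10, 0 IL-12 and 1 other suppression genes. Without WT replicate 4 the same lists passed 7, 4, 7, 4, 4 and 13, beside 4126 of all genes. Under DESeq2 they passed 8, 4, 5, 9, 5 and 13, beside 4791 of all genes. The lists held 17, 20, 16, 16, 7 and 23 tested genes in that order.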
